A study of Bubalus bubalis with 6 samples.

Results

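Lysosome and autophagy genes were examined in muscle stem cells (MuSCs) of the water buffalo (Bubalus bubalis) by polyA RNA sequencing. The set is a list of 54 gene symbols for lysosomal enzymes, lysosomal membrane proteins, subunits of the vacuolar ATPase, MiT/TFE transcription factors and autophagy proteins. The rule names symbols and uses no measured value, but the members were chosen with earlier results of these data known. The list was therefore not tested as a set, and its shares beside all genes are descriptions. The deposited gene table lists 49 of them among 24616 genes, each on a single row, and the other 5 symbols (ATG5, CTSD, CTSL, HEXA and MAP1LC3B) are not listed under these names and were not analysed here. All 49 listed members passed the minimum of 10 counts in total over the samples, as did 15576 genes in all, and the lowest count of a member in any sample was 59.

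The cells of both groups came from buffalo fetal longissimus muscle by enzyme digestion. The 3 GM samples were proliferating MuSCs in growth medium, which is DMEM with fetal bovine serum, and the 3 DM samples were MuSCs moved near confluence to differentiation medium, which is DMEM with a low share of horse serum. The labels name no genotype, drug or time of harvest, and they do not say whether the samples were separate cultures or animals, so p-values measure only the spread between these samples. Between 35615864 and 40305237 reads per sample were counted on genes, and replicates differed by more than sampling noise. DM replicate 3 stood further from the other DM samples (40.5 and 41.4, a chi-square of counts over its degrees of freedom) than these stood from each other (11.7).

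Lysosomes are acidic organelles in which hydrolases break down proteins, glycans and lipids that arrive by endocytosis or by autophagy. In autophagy a new membrane sac, the autophagosome, closes around cytoplasm or organelles, carries lipid-linked ATG8 proteins on its surface and fuses with a lysosome. The vacuolar ATPase pumps protons into the lysosome, and MiT/TFE factors such as TFEB switch on many lysosomal genes when nutrients are short. Muscle fibres depend on this system, as the loss of acid alpha-glucosidase, which causes the glycogen storage disorder of Pompe, shows.

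Most lysosome and autophagy genes had more counts in DM samples. edgeR's quasi-likelihood test with Benjamini-Hochberg adjustment over all 15576 genes called 15 of 49 members, where a call needs a log2 fold change beyond 1 in either direction as well as an adjusted p under 0.05, against 25.3% of all genes tested. Of these, 14 were higher in DM samples, where 15.0% of all genes were called higher, and 1, BNIP3, was lower, where 10.3% of all genes were called lower. In percent, 30.6 of the members were called, 28.6 higher and 2.04 lower, so the difference from all genes lay in the direction of the calls. At an adjusted p under 0.05 and any fold change, 36 members were higher and 8 were lower, beside 31.6% and 31.4% of all genes. Leaving out a single sample gave 32 to 36 higher and 5 to 9 lower, with the 5 seen without GM replicate 3. ATG7, ATG16L1, CD63, GABARAPL2, MITF, NEU1, PSAP and TFE3 each missed this threshold in at least 1 alternative. The median log2 fold change (DM over GM) was 0.51 over the members and 0.03 over all genes tested. These are whole cultures, in which fewer cells of a type and less RNA per cell cannot be told apart.

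The groups did not overlap for 44 of the 49 members, against 68.8% of all genes. Levels in CPM, counts scaled to a common TMM-normalized library size, summed over all members were 5267 ± 39.6 in the GM samples and 10257 ± 1033 in the DM samples, as mean ± SD of 3 samples a group, the form used throughout. The proteases CTSB, CTSH and CTSK took 746 ± 14.2 CPM of this sum in GM samples and 4207 ± 814 CPM in DM samples. The other 46 members together went from 4521 ± 31.9 to 6049 ± 274 CPM. Most of the added counts thus lay on these proteases, and the median log2 fold change of the other 46 members was 0.48.

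**Figure D1:**
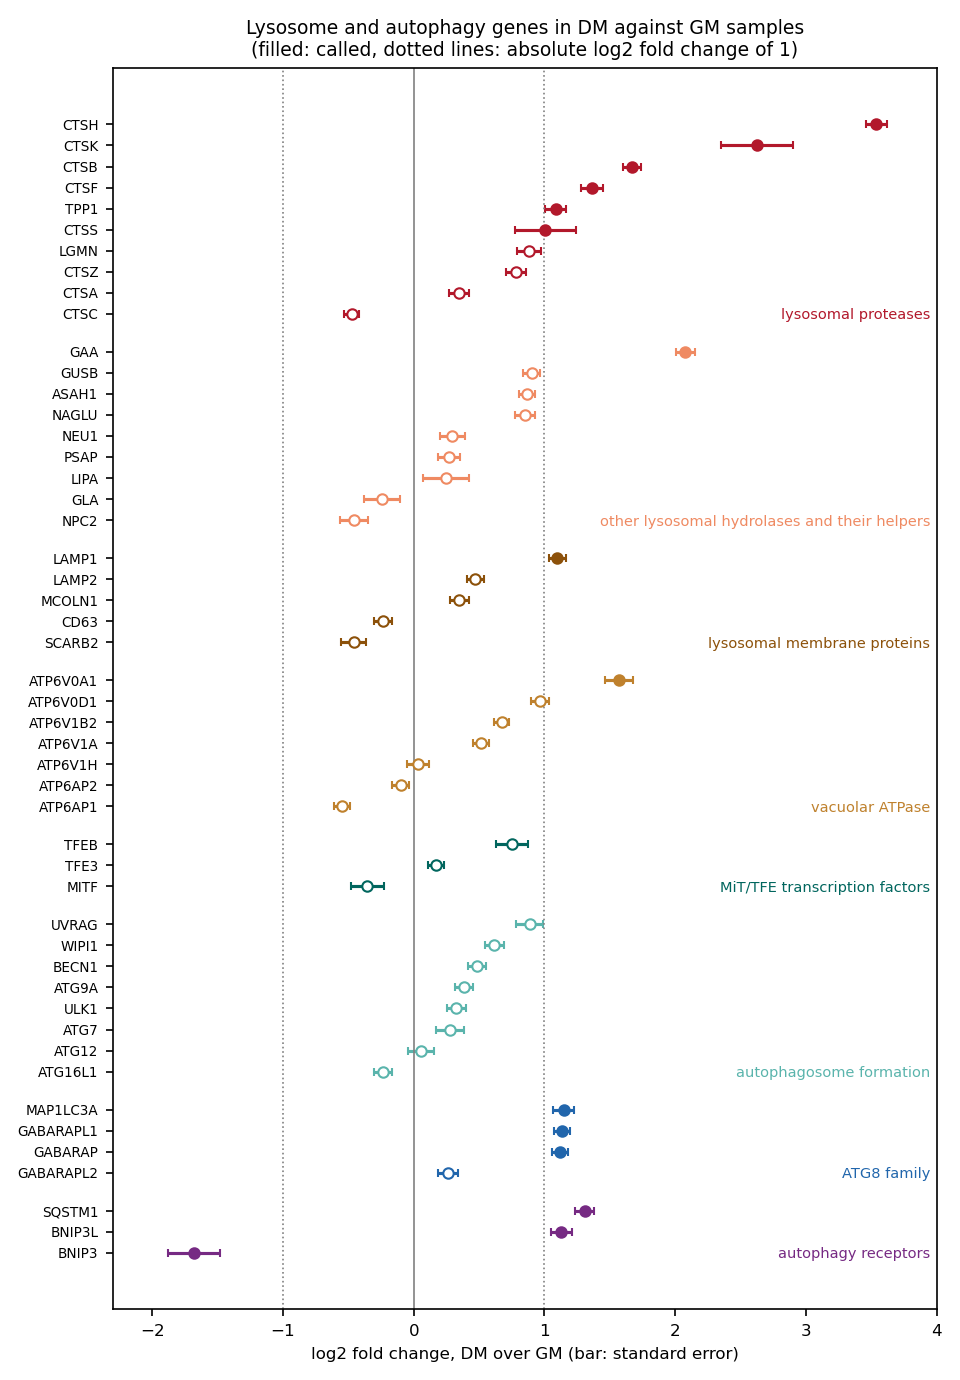
Log2 fold change (DM over GM, x axis) of the 49 members, grouped by role, with bars for the standard error from edgeR. Filled points are the 15 called members and dotted lines mark a log2 fold change of 1 in either direction. Proteases, ATG8 genes and receptors hold 12 of the 15 filled points.

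The lysosomal proteases held the highest fold changes of single members and the largest rise in summed counts. Of 10 tested, 6 were called higher and none lower, 9 were higher and 1 lower at an adjusted p under 0.05, and the median log2 fold change was 1.05. Counts of this and each later role are to be read against the shares of all genes tested. Of these, 15.0% were called higher and 10.3% lower, and 31.6% were higher and 31.4% lower at an adjusted p under 0.05. Together the proteases went from 1260 ± 11.9 CPM to 4937 ± 837 CPM. CTSH encodes cathepsin H, an aminopeptidase of the papain family. In the deposited coordinates CTSH lies at chromosome 21, 25675908 to 25696632. These coordinates come with cattle Ensembl identifiers and no genome build, so the positions given here are not to be read as buffalo positions. CTSH had 143, 147 and 149 CPM in the GM samples and 1769.5, 1525 and 1800.4 CPM in the DM samples. The lowest DM sample was far above the highest GM sample. The log2 fold change was 3.54 (SE 0.080, edgeR adjusted p = 6.51e-10), or 11.6-fold, and leaving out any single sample gave 3.50 to 3.63.

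CTSK encodes cathepsin K, the collagen-degrading cathepsin best known from osteoclasts. It had 195, 203 and 206 CPM in GM samples and 940.0, 812 and 1965 CPM in DM samples. All DM samples were higher, but DM replicate 3 held 2.24 times the mean of the other DM samples. The log2 fold change was 2.62 (SE 0.276, edgeR adjusted p = 1.17e-05), and without DM replicate 3 it was 2.13. No other member was so uneven among DM samples: BNIP3 (1.67 times), LIPA (1.55 times), GLA (1.48 times) and NPC2 (1.32 times) were next above the other DM samples in replicate 3, and SCARB2 (0.783 times) was furthest below them.

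CTSB encodes cathepsin B, an abundant cysteine protease of lysosomes. Its levels of 392, 404 and 400.4 CPM in GM samples were well separated from the 1312, 1165 and 1333 CPM of DM samples. The log2 fold change was 1.67 (SE 0.068, edgeR adjusted p = 1.55e-08). CTSF encodes cathepsin F and was a gene of moderate level. It had 18.4, 20.4 and 20.02 CPM in GM samples and 54.0, 51.5 and 45.7 CPM in DM samples. The groups lay clearly apart, with a log2 fold change of 1.36 (SE 0.084, edgeR adjusted p = 2.37e-07).

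TPP1 encodes tripeptidyl peptidase 1, a serine protease that trims tripeptides from protein ends. It had 86.2, 78.7 and 79.9 CPM in GM samples and 192, 159 and 169 CPM in DM samples. The groups did not overlap, and the log2 fold change was 1.09 (SE 0.079, edgeR adjusted p = 7.58e-07). CTSS encodes cathepsin S, a protease of antigen-presenting cells, and was the lowest member by RPKM (reads scaled by gene length and library size) in both groups. It had 2.31, 1.47 and 1.56 CPM in GM samples and 3.55, 4.02 and 3.16 CPM in DM samples. DM samples were higher, but GM replicate 1 lay near the lowest of them. The log2 fold change of 1.01 (SE 0.234, edgeR adjusted p = 0.00331) was just over the threshold, and leaving out DM replicate 2, GM replicate 2 or GM replicate 3 gave 0.93, 0.88 or 0.92, under it.

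CTSK and CTSS are neighbours on chromosome 3 of the deposited coordinates, with 16440 bases between them and no other listed gene wholly in between. CTSK, the higher of them by RPKM in both groups (122 ± 3.05 and 705 ± 361 against 1.09 ± 0.289 and 2.05 ± 0.266, GM and DM samples), was also the more uneven in DM samples. In DM replicate 3, which had the highest CTSK level, the CTSS level was the lowest of the 3 DM samples.

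The proteases that were not called were LGMN (asparaginyl endopeptidase, log2 fold change 0.88), CTSZ (a carboxypeptidase, 0.78), CTSA (a carboxypeptidase that also protects other lysosomal enzymes, 0.35) and CTSC (the dipeptidyl peptidase that activates granule proteases, -0.48). CTSA shares 63 bases of its listed interval with PLTP on the opposite strand, which has 75 to 765 counts per sample. CTSC was the only protease below its GM level. It had 174, 179 and 169 CPM in GM samples and 128, 127 and 121 CPM in DM samples. The SE was 0.058 and the edgeR adjusted p was 3.82e-05, so cathepsin C fell by a small and tightly measured amount while 9 other proteases were higher.

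**Figure D2:**
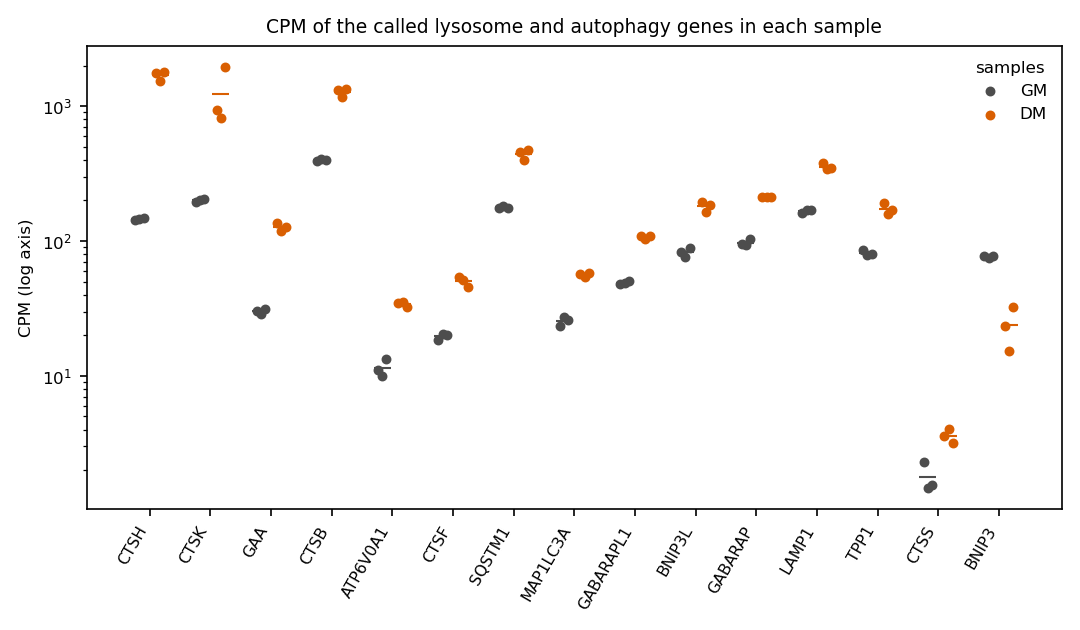
CPM (y axis, log scale) of the 15 called members in each of the 3 GM and 3 DM samples, with a line for each group's mean. In all 15 genes the GM and DM points are separate, and CTSK and BNIP3 show the widest spread among DM samples.

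The other hydrolases and their helpers changed less. Of 9 tested, 1 was called higher, 6 were higher and 1 lower at an adjusted p under 0.05, and the median log2 fold change was 0.30. GAA, the acid alpha-glucosidase that degrades glycogen in lysosomes, was the called gene. It had 30.1, 28.9 and 31.6 CPM in GM samples and 136, 118 and 128 CPM in DM samples. The groups were far apart and each was tight, with a log2 fold change of 2.08 (SE 0.075, edgeR adjusted p = 7.43e-09), or 4.22-fold. GAA shares 294 bases of its listed interval with a gene on the opposite strand that has 20 to 52 counts per sample, and whether reads were counted by strand is not given in the sources used here.

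GUSB (beta-glucuronidase, 0.90), ASAH1 (acid ceramidase, 0.87) and NAGLU (which removes N-acetylglucosamine from heparan sulfate, 0.85) lay below a log2 fold change of 1, and all 3 passed an adjusted p under 0.05. NEU1, the lysosomal sialidase, was higher by 0.30 (adjusted p = 0.0220), which was lost with library size in place of TMM and without DM replicate 1, GM replicate 1 or GM replicate 3. PSAP, the precursor of the saposins that help sphingolipid breakdown, was the most abundant gene of the group by RPKM, at 315 ± 3.20 in GM samples and 355 ± 40.8 in DM samples. It had 798, 814 and 797 CPM in GM samples and 976, 850.5 and 1083 CPM in DM samples. The DM samples were all higher but spread widely, with a log2 fold change of 0.27 (SE 0.083, edgeR adjusted p = 0.0148), which was 0.0793 with library size in place of TMM and 0.0561 without GM replicate 3.

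NPC2, LIPA and GLA were the members of this group that did not pass the test upward. NPC2, which carries cholesterol inside the lysosome, went from 164 ± 1.28 CPM to 119 ± 20.9 CPM (log2 fold change -0.46, edgeR adjusted p = 0.00301). LIPA, the acid lipase that frees cholesterol from its esters, had a log2 fold change of 0.25 (adjusted p = 0.239), which was 0.01 without DM replicate 3. GLA, alpha-galactosidase A, had -0.24 (adjusted p = 0.147), which was -0.45 without DM replicate 3. The test was not passed by LIPA and GLA, and in both the DM samples overlapped the GM samples.

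Among 5 lysosomal membrane proteins, 1 was called higher, and 3 were higher and 2 lower at an adjusted p under 0.05, with a median log2 fold change of 0.35. LAMP1, a heavily glycosylated protein of the lysosomal limiting membrane, had 160.2, 169.8 and 170.0 CPM in GM samples. It had 381, 343 and 345 CPM in DM samples. The groups did not overlap, with a log2 fold change of 1.10 (SE 0.065, edgeR adjusted p = 1.68e-07). Its relative LAMP2, which also serves chaperone-mediated autophagy, rose less, by 0.47 (adjusted p = 0.000128), and MCOLN1, the calcium channel of the lysosome, by 0.35 (adjusted p = 0.00174).

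CD63, a tetraspanin of late endosomes and exosomes, was the most abundant of all members in GM samples, at 749.9 ± 18.6 RPKM. It had 601, 614 and 633 CPM in GM samples and 524, 483 and 565 CPM in DM samples. The DM samples were lower without overlap, by a log2 fold change of -0.23 (SE 0.068, edgeR adjusted p = 0.0120), which was 0.0577 without GM replicate 3. SCARB2, the receptor that brings glucocerebrosidase to the lysosome, also fell, from 196 ± 12.9 to 143 ± 19.96 CPM (log2 fold change -0.46, adjusted p = 0.00195). Membrane proteins of the same organelle thus differed in direction.

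The vacuolar ATPase genes were mixed. Of 7 tested, 1 was called higher, 4 were higher and 1 lower at an adjusted p under 0.05, and the median was 0.51. ATP6V0A1, the a1 subunit of the membrane-bound sector, had 11.1, 10.02 and 13.2 CPM in GM samples and 34.5, 35.2 and 32.4 CPM in DM samples. The groups were widely apart, with a log2 fold change of 1.57 (SE 0.105, edgeR adjusted p = 4.08e-07). By RPKM it stood among the lowest members, at 2.87 ± 0.411 in GM samples and 7.96 ± 0.396 in DM samples.

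ATP6V0D1, the d1 subunit of the same sector, was the most abundant ATPase gene by RPKM, at 123 ± 2.12 in GM samples and 225 ± 15.3 in DM samples. It had 184, 180.4 and 186 CPM in GM samples and 392, 344 and 337 CPM in DM samples. The groups did not overlap, but the log2 fold change of 0.96 (SE 0.070, edgeR adjusted p = 7.01e-07) stayed below the minimum of 1, and became 1.01 when either DM replicate 2 or DM replicate 3 was left out. The catalytic-sector genes ATP6V1B2 (0.67) and ATP6V1A (0.51) were higher as well, while ATP6V1H had 0.03 (adjusted p = 0.759).

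The accessory proteins did not follow the membrane sector. ATP6AP1, which helps assemble the pump, went from 146 ± 3.25 to 100.01 ± 2.98 CPM (log2 fold change -0.55, SE 0.058, edgeR adjusted p = 1.25e-05). ATP6AP2, also known as the prorenin receptor, had -0.10 (adjusted p = 0.192). In the deposited coordinates ATP6V0A1 and NAGLU are the closest members of the list, 7003 bases apart on chromosome 19 with no other listed gene wholly between them. Their log2 fold changes were 1.57 and 0.85, both upward.

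**Figure D3:**
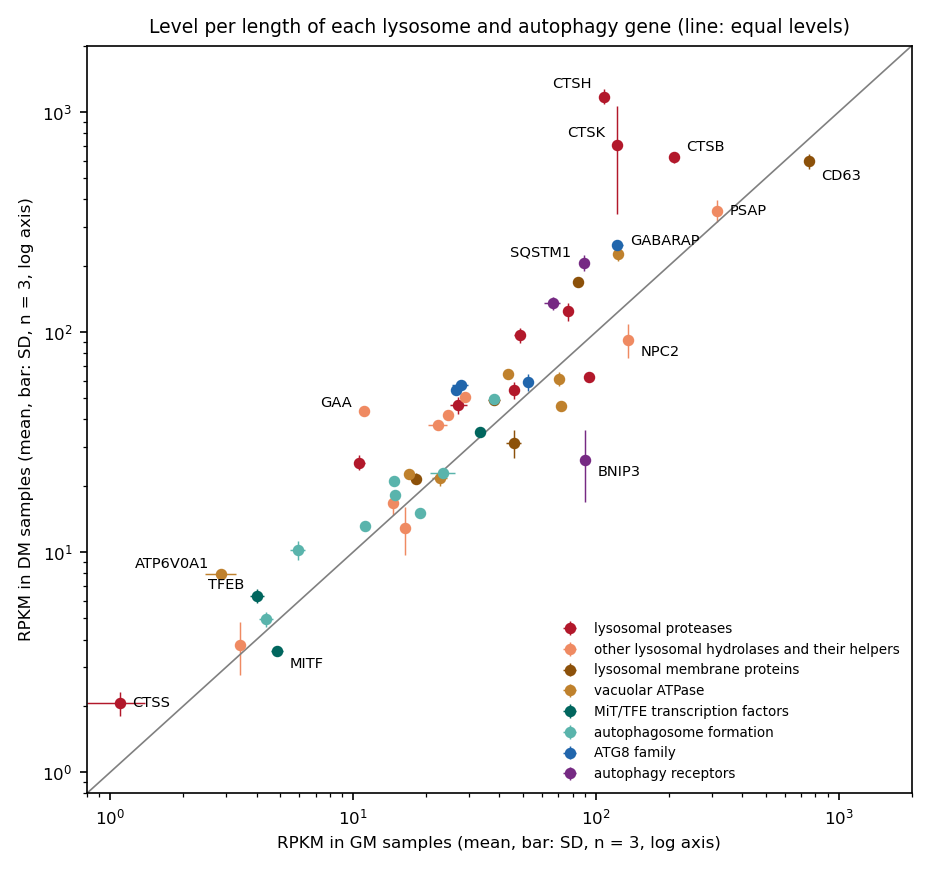
Mean RPKM of each member in DM samples (y axis) against GM samples (x axis), both log scales, with SD bars (n = 3) and a line of equal levels. CTSH, CTSK, GAA and CTSB stand far above the line, BNIP3 furthest below it, and CD63 is the highest member in GM samples.

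The order of levels per length changed at its top. By deposited RPKM, GM samples ranked CD63 first (749.9 ± 18.6), then PSAP (315 ± 3.20), CTSB (209 ± 2.82) and NPC2 (136 ± 0.767). ATP6V0D1 (123 ± 2.12), GABARAP (123 ± 6.46) and CTSK (122 ± 3.05) followed and were not separable from each other by their spread. In DM samples CTSH came first (1173 ± 91.1), up from rank 8 in GM samples. CTSK (705 ± 361), CTSB (620.3 ± 37.9) and CD63 (596 ± 43.8) followed, and their order is not resolved, since the SDs of these genes overlap. At least 1 RPKM in all 6 samples was found for 48 of the 49 members, and CTSS was the exception.

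The MiT/TFE factors, which drive lysosomal genes, did not move in a single direction. None of the 3 was called, and 2 were higher and 1 lower at an adjusted p under 0.05. TFEB had 6.80, 6.95 and 6.15 CPM in GM samples and 11.0, 10.4 and 12.1 CPM in DM samples. DM samples were higher without overlap, by a log2 fold change of 0.75 (SE 0.121, edgeR adjusted p = 0.000291).

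TFE3 was the most abundant of the factors by RPKM, at 33.4 ± 1.53 in GM samples, above MITF at 4.87 ± 0.273 and TFEB at 4.03 ± 0.258. It had 108, 108 and 99.5 CPM in GM samples and 122, 118 and 114 CPM in DM samples, which gave a log2 fold change of 0.17 (SE 0.062, edgeR adjusted p = 0.0331). This was the smallest difference that passed, and it was 0.07 (adjusted p = 0.324) with library size in place of TMM. Leaving out DM replicate 1 or any of the GM samples also lost it, with adjusted p of up to 0.154. MITF, best known from pigment cells and osteoclasts, had 7.33, 8.03 and 7.23 CPM in GM samples and 5.98, 5.85 and 5.81 CPM in DM samples. It was lower in each DM sample, by a log2 fold change of -0.36 (SE 0.127, edgeR adjusted p = 0.0301). MITF no longer passed when a sample other than DM replicate 3 was left out, with adjusted p of 0.0541 to 0.1000. These values are transcript levels and say nothing of where in the cell the factors were.

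Genes that build the autophagosome rose modestly. None of the 8 tested was called, 6 were higher and 1 lower at an adjusted p under 0.05, and the median log2 fold change was 0.35. BECN1 encodes Beclin 1 of the lipid kinase complex that starts the membrane, and was the most abundant of them by RPKM (37.9 ± 0.456 in GM samples, 49.5 ± 2.82 in DM samples). It had 58.9, 58.6 and 57.7 CPM in GM samples and 85.5, 83.3 and 76.1 CPM in DM samples. The groups did not overlap, with a log2 fold change of 0.48 (SE 0.067, edgeR adjusted p = 9.19e-05).

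UVRAG, a partner of Beclin 1, rose most (0.89), followed by WIPI1, which binds the phosphoinositide of the growing membrane (0.62). ATG9A, the scramblase that seeds the membrane (0.38), ULK1, the kinase that starts the process (0.33), and ATG7, the enzyme that activates ATG8 proteins (0.28), were higher by less. For ATG7 the adjusted p of 0.0432 was lost in 9 alternatives, DESeq2 and 5 of the 6 fits without a sample among them. ATG16L1, which directs where ATG8 proteins are attached, was lower by a log2 fold change of -0.23 (edgeR adjusted p = 0.0119), which was 0.0512 without GM replicate 3. ATG12, a ubiquitin-like protein of the same attachment step, had 0.06 (adjusted p = 0.637) and shares 10709 bases of its listed interval with LVRN on the opposite strand.

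The ATG8 family, whose proteins are fixed to the autophagosome membrane, was higher throughout. Of 4 listed members, 3 were called higher and all 4 were higher at an adjusted p under 0.05, with a median log2 fold change of 1.13. Their summed level went from 219 ± 8.96 to 433 ± 7.11 CPM. GABARAP, the most abundant by RPKM (123 ± 6.46 in GM samples, 249 ± 5.17 in DM samples), had 94.4, 93.9 and 103 CPM in GM samples and 211, 212 and 212 CPM in DM samples. The DM samples were nearly identical, and the log2 fold change was 1.12 (SE 0.061, edgeR adjusted p = 9.60e-08).

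GABARAPL1, a relative of GABARAP, had 47.7, 49.1 and 50.1 CPM in GM samples and 109, 104 and 109 CPM in DM samples. The groups were far apart beside their spread, with a log2 fold change of 1.13 (SE 0.061, edgeR adjusted p = 8.77e-08). MAP1LC3A, an LC3 gene, had 23.4, 27.4 and 25.8 CPM in GM samples and 57.4, 53.9 and 58.3 CPM in DM samples. The groups were again separate, with a log2 fold change of 1.15 (SE 0.078, edgeR adjusted p = 4.67e-07).

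GABARAPL2 stood apart from the other ATG8 genes. It had 45.8, 47.7 and 50.1 CPM in GM samples and 53.3, 56.9 and 62.2 CPM in DM samples. The DM samples were higher without overlap but close, with a log2 fold change of 0.26 (SE 0.076, edgeR adjusted p = 0.0113). The adjusted p was 0.0910 with library size in place of TMM and 0.0512 without GM replicate 1. MAP1LC3B, the LC3 gene most often used as a marker of autophagosomes, is the ATG8 member not listed by symbol.

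All 3 autophagy receptors, which tie cargo to ATG8 proteins, were called, and they went in opposite directions. SQSTM1 encodes p62, the receptor for ubiquitin-tagged cargo. It had 176, 182 and 176 CPM in GM samples and 455, 397 and 471 CPM in DM samples. All DM samples lay far above the GM samples, with a log2 fold change of 1.31 (SE 0.073, edgeR adjusted p = 1.08e-07), or 2.48-fold. SQSTM1 shares 54 bases of its listed interval with a gene on the opposite strand that has 146 to 384 counts per sample.

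BNIP3L and BNIP3 are related receptors of mitochondria, and their transcripts moved apart. BNIP3L had 83.3, 76.6 and 89.0 CPM in GM samples and 196, 165 and 184 CPM in DM samples, which gave a log2 fold change of 1.13 (SE 0.081, edgeR adjusted p = 6.75e-07). BNIP3, known as a target of hypoxia signalling, had 76.9, 74.4 and 77.3 CPM in GM samples and 23.5, 15.4 and 32.5 CPM in DM samples. GM samples were alike, and DM samples were all lower but uneven. The log2 fold change was -1.68 (SE 0.1999, edgeR adjusted p = 3.04e-05), or 3.20-fold lower, with -1.96 when DM replicate 3 was left out and -1.43 when DM replicate 2 was. Per length, BNIP3 was the higher of them in GM samples, at 90.2 ± 2.02 against 66.2 ± 5.004 RPKM, and the lower in DM samples, at 26.3 ± 9.37 against 135 ± 9.06 RPKM.

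**Figure D4:**
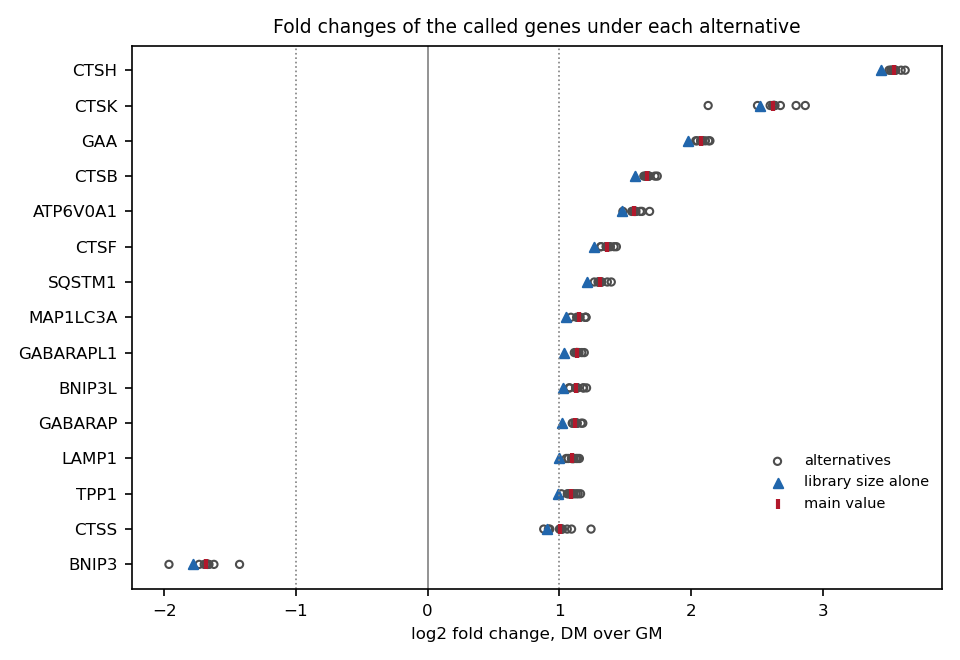
Log2 fold change (DM over GM, x axis) of the 15 called members in the main test (red), with library size in place of TMM (blue triangles) and under the other alternatives (open circles). Dotted lines mark a log2 fold change of 1 in either direction; no called gene changes side of 0, and CTSS, TPP1 and LAMP1 have values below 1.

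Several of the called members were close to the minimum fold change. With a test against a fold change of 2 (edgeR glmTreat), 9 members were called, and CTSS, LAMP1, TPP1, BNIP3L, GABARAP and MAP1LC3A were not. With library size in place of TMM, 12 were called and CTSS, LAMP1 (log2 fold change 0.998) and TPP1 (0.988) were not. Without DM replicate 3, 16 were called, 15 of them higher, with ATP6V0D1 added. CTSH, CTSK, CTSB, CTSF, GAA, ATP6V0A1, SQSTM1, GABARAPL1 and BNIP3 were called under all 15 alternatives run. The alternative without a minimum fold change keeps every called member by its definition.

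Counts per transcript were read beside those per gene. The transcript table lists 56 mRNA transcripts for the 49 members, all tested, and 15 were called, 14 higher and 1 lower in DM samples, against 25.6% of all mRNA transcripts. In 42 members 1 transcript is listed, with the same counts as the gene, so for these the transcript test repeats the gene test under another normalization. In 7 members more than 1 transcript is listed (ATG7, ATP6V0A1, ATP6V1H, LAMP2, MCOLN1, PSAP and TFE3), and transcripts of a gene can share reads. Both transcripts of ATP6V0A1 were called, with log2 fold changes of 1.60 and 1.55. The transcripts of LAMP2 had 0.41 and 0.62. CTSS, called as a gene with 1.01, had 0.99 in its transcript and was not called. Its counts are the same in both, and the transcript counts were normalized on their own library totals.

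Other genes of the same pathways were tested from 10 lists written from general knowledge, of 187 symbols, with 167 listed and 165 tested. In all, 27 were called higher (16.4%, near the 15.0% of all genes) and 4 lower (2.42%, against 10.3% of all genes). At an adjusted p under 0.05, 89 were higher (53.9%, against 31.6%) and 36 lower (21.8%, against 31.4%), and the median log2 fold change was 0.34. The counts of single lists are to be read against the same shares of all genes. Of 29 further hydrolases and activators, 8 were called higher and none lower, led by MAN2B1, lysosomal alpha-mannosidase (76.7 ± 1.61 to 283 ± 18.8 CPM, log2 fold change 1.88, edgeR adjusted p = 7.43e-09), and GLB1, beta-galactosidase (137 ± 3.90 to 395 ± 61.0 CPM, 1.53, 4.02e-07). Of 21 further membrane proteins and transporters, none was called higher and 1 lower, CD68, a glycoprotein of macrophage lysosomes (5.29 ± 0.593 to 2.59 ± 0.527 CPM, -1.04), with 14 higher and 4 lower at an adjusted p under 0.05.

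Genes for the sorting of enzymes to the lysosome were mixed. Of 18 sorting genes, 6 were higher and 8 lower at an adjusted p under 0.05, with a median of -0.13. The called gene was SORT1, sortilin, which carries enzymes from the Golgi (20.5 ± 1.84 to 97.2 ± 6.35 CPM, log2 fold change 2.24). Of 12 further vacuolar ATPase subunits, 1 was called higher and 1 lower, both barely detected. ATP6V0D2, a subunit known from osteoclasts, had 1, 1 and 0 counts in GM samples and 11, 9 and 9 in DM samples, and ATP6V1C2 went from 0.546 ± 0.0614 to 0.244 ± 0.0809 CPM.

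Among 24 further autophagosome formation genes, 1 was called higher, ZFYVE1, whose protein marks the site where the membrane forms (log2 fold change 1.19), and 1 lower, ATG4D, a protease that processes ATG8 proteins (-1.04), with 15 higher and 5 lower at an adjusted p under 0.05. Of 12 further receptors, 4 were called higher and none lower, led by CALCOCO1, a receptor for the endoplasmic reticulum (23.9 ± 0.948 to 72.2 ± 0.797 CPM, 1.60), and OPTN, optineurin (57.5 ± 2.45 to 167 ± 16.3 CPM, 1.54). Of 14 fusion genes, VAMP8, a SNARE, was called higher (1.20) and RUBCN, the Beclin 1 partner Rubicon that slows autophagosome maturation, lower (-1.14). The median over the fusion genes was 0.06.

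Of 27 genes of mTORC1 and nutrient sensing, 7 were called higher and none lower, with a median of 0.34. They were led by DEPTOR, an mTOR-binding inhibitor, which had 1, 4 and 1 counts in GM samples and 37, 55 and 33 in DM samples, and SESN3, a sestrin (0.963 ± 0.230 to 6.84 ± 2.56 CPM, log2 fold change 2.82). Of 7 other regulators of autophagy transcription, 3 were called higher, led by FOXO3 (10.8 ± 1.13 to 33.7 ± 3.57 CPM, 1.64) and FOXO4 (6.04 ± 0.402 to 14.01 ± 0.903 CPM, 1.21). CSTA, a cytosolic inhibitor of cysteine cathepsins, was the only listed gene of 4 such inhibitors and was called higher, from 0.0971 ± 0.0712 to 1.07 ± 0.356 CPM.

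**Figure D5:**
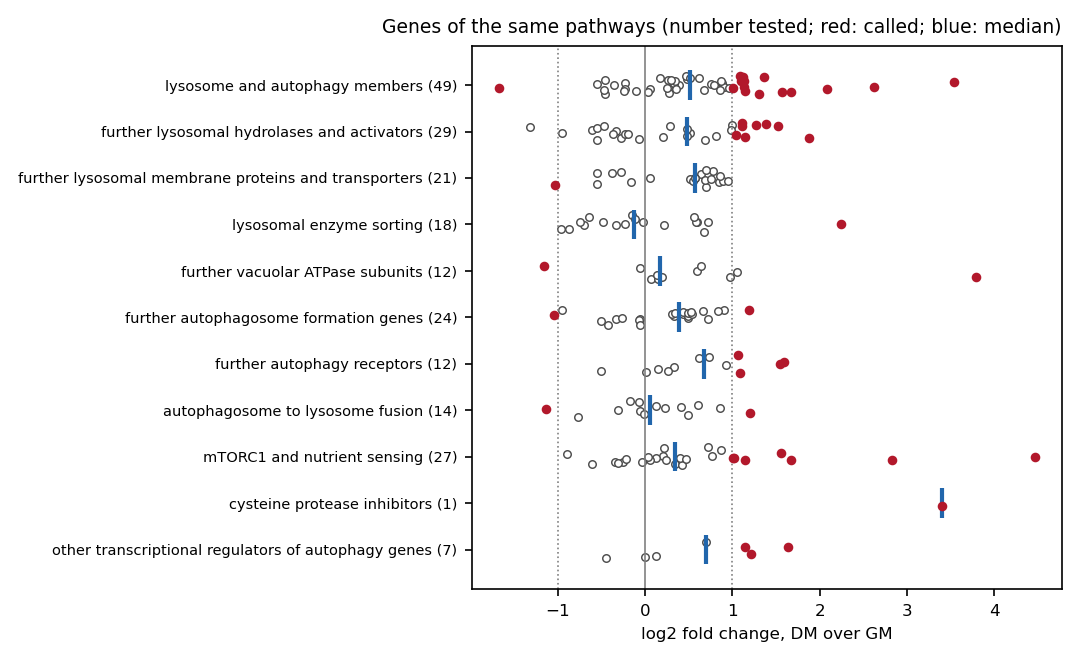
Log2 fold change (DM over GM, x axis) of each tested gene of the member list and of the 10 further lists (number tested in brackets), red where called, with a blue bar for the median. The hydrolase, receptor and mTORC1 lists hold 19 of the 27 further genes called higher, and the sorting genes have a median below 0.

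Markers of other cell types were read beside these results, and their counts are to be read against the shares of all genes. Of all genes tested, 15.0% were called higher and 10.3% lower. At an adjusted p under 0.05, 31.6% were higher and 31.4% lower. Myotube markers were called higher in 9 of 9 tested, and of 5 myoblast markers MYF5 was called lower (143 ± 6.38 to 22.0 ± 3.34 CPM), with 3 lower and 1 higher at an adjusted p under 0.05 and a median log2 fold change of -0.53. PAX7, which defines satellite cells, was present at 18.3 to 18.7 CPM in GM samples and 6.11 to 12.3 CPM in DM samples (log2 fold change -0.92), and MYOD1 was the marker that was higher (0.90). All 8 fibroblast markers were higher at an adjusted p under 0.05 and 5 were called, with a summed level of 35390.3 to 36154 CPM in GM samples and 97379 to 123285 CPM in DM samples. These markers include the collagen genes COL1A1, COL1A2 and COL3A1, and their sum is a transcript level and not a share of fibroblasts. Macrophages are rich in cathepsins. Of 11 macrophage markers 9 were tested, with a median log2 fold change of 0.12. CD14 and MRC1 (2 genes) were called higher and 7 did not pass an adjusted p under 0.05. The summed level of the 9 was 2.64 to 4.27 CPM in GM samples and 6.11 to 13.4 CPM in DM samples. The other 7 tested macrophage markers stayed at or below 1.51 CPM in every sample, and PTPRC and TYROBP had too few counts to be tested. CD68, a macrophage gene outside this marker list, went the other way and was called lower (5.29 ± 0.593 to 2.59 ± 0.527 CPM). DM replicate 3, the highest sample for CTSK, had the lowest summed macrophage and fibroblast marker levels of the DM samples and the highest summed myotube marker level (8843 CPM, beside 6118 and 6296 CPM). Of 6 adipocyte markers tested 2 were called higher and 1 lower, and of 5 endothelial markers 1 higher and 2 lower, with summed levels of at most 8.76 and 6.05 CPM in any sample. No marker listed was at 0 in all 6 samples. The part of these cell types in the changes of CTSK and the other members was not tested.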

How the data were processed

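Gene and mRNA tables of 3 GM and 3 DM samples were used. The raw counts per gene and per mRNA transcript were made by the authors, whose methods name HISAT2 and a buffalo genome. The submitters' processing notes name Bowtie 0.12.2, mm8 and mm9, and the tables list cattle Ensembl identifiers with no build. Strand setting and treatment of reads with several matches are not given in the sources used here. The authors derived the RPKM values from the counts, the deposited Length column and the summed gene counts. The deposited lists of differential features, with the authors' log2 fold changes, p-values and q-values, and the ncRNA table were not used.

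Counts with at least 10 reads in total were tested in R 4.3.3 with edgeR 4.0.16 (TMM, glmQLFit, glmQLFTest, Benjamini-Hochberg adjustment, absolute log2 fold change above 1, adjusted p under 0.05). Standard errors were taken from the F statistic. Alternatives used DESeq2 1.42.0, other normalization, filters and thresholds, a replicate block and each sample left out. Tables were summarised with Python 3.11.15 and pandas 2.3.3. The code was tested on simulated data. Replicate numbers were not used to pair the samples, since neither the labels nor the methods say what a number marks.

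The members, their roles, the 10 pathway lists and the markers were chosen with earlier results of these data known. Values in each sample are given for called members, the most abundant member of each role by RPKM, MiT/TFE factors and ATG8 genes, and from each list the 2 called genes with the largest change are named. Other members and the non-passing genes were named to account for the whole list. Promoters, protein sequences and motifs were not analysed here.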

Additional observations from a re-analysis of the deposited data

How the results depend on the processing

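No member that passed an adjusted p under 0.05 changed direction under any alternative, and ATG12 and ATP6V1H, which did not pass, changed sign in some. Of the 15 called members, 9 remained with a test against a fold change of 2 (8 higher in DM samples). Without a minimum fold change 44 were called, 36 higher and 8 lower, and these counts were 31 and 9 with library size alone. Leaving out each sample in turn gave 14 to 16 called members, 13 to 15 of them higher and 1 lower, a median log2 fold change of 0.49 to 0.55 and 14 to 16 called transcripts. Scaled by library size alone, without TMM, the median over members was 0.41 in place of 0.51 and that over all genes -0.07 in place of 0.03, and 9 member transcripts were called in place of 15. When genes needed 1 RPKM or more in most samples, the median over members was 0.57, with the same 49 members; ATP6V0D1 then passed the minimum fold change (1.02). Over all genes, 2293 were called against a fold change of 2, 9813 without a minimum fold change and 2197 of 11587 under the RPKM rule, beside 3936.

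With the replicate number as a replicate block, 15 members (14 higher, 1 lower) and 16 member transcripts were called, with a median of 0.51. The block left 34 members higher and 7 lower at an adjusted p under 0.05, without ATG7 (0.0510), MITF (0.0586) and TFE3 (0.0506). The deviations of same-numbered samples correlated at -0.0218 to -0.00756, which with 3 samples per group cannot exclude a shared culture or animal. The numbers were not used as pairs because the labels do not say what they mark. The 3 samples per group limit the precision of all values.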
